A study of Canis lupus familiaris with 28 samples.

Results

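The interferon response genes described here are 40 genes that cells switch on when they sense interferon or viral nucleic acid, measured in the blood of dogs with atopic dermatitis (AD) and of healthy dogs. They were found by matching the gene names printed in the array files to the list of 40. Of these, 34 had at least 1 probe under that name, and 30 kept a probe after the filter on signal, out of 10773 genes with a symbol and 30202 probes that passed it. No probe carried the names IFI44, IRF7, SAMD9L, ZBP1, SP110 or LGALS3BP, and DDX60, DHX58, USP18 and TRIM25 had probes too dim to be kept. Where a gene had several probes, its brightest one stood for it. The 20 AD dogs had clinical signs of AD when blood was taken and had received no anti-inflammatory drug for some weeks before allergy testing. The 8 healthy dogs were the controls, and both groups were privately owned, of various breeds and of both sexes, with no experimental treatment. Per the labels RNA came from whole blood, while the title of the series speaks of nuclear cells of peripheral blood; 5 of 7 erythroid marker genes kept a probe. On each array the RNA of 1 dog was set against the same common reference, pooled from the blood RNA of further healthy dogs. A change in the number of cells of a type and a change in RNA per cell cannot be told apart.

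Type I interferons bind a receptor on nearly every nucleated cell and activate a complex that holds STAT2 and IRF9. This complex enters the nucleus and turns on a large group of genes whose products detect viral RNA, block viral replication, tag proteins with ISG15 and tune the response itself. In blood, the group is known for rising and falling as a block, most of all during viral infection and in some autoimmune diseases.

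The probes are the measuring devices behind every value below, and 4 sets of them bear on how the values can be read. Each probe is 60 bases long, and 30 bases of each are given from 5′ to 3′ as printed in the array files. MX1 and ISG15 are shown first because their probes hold the letters AATAAA (in capitals), those of a polyadenylation signal, which 2 of the 30 members (6.67%) and 9.48% of all probes left by the filter hold. IRF9 and OAS2 follow, each with 2 overlapping probes whose shared run is in capitals. HERC5 and HERC6 are shown because the products are close relatives, and the longest run their probes share is in capitals.
MX1: ctgatttgtAATAAActtgtttatccccgg
ISG15: accaagtatgggtAATAAAagttgacaaaa
IRF9, brighter probe: tctcctctctcttCCTCCTATCTGCTTTGA
IRF9, dimmer probe: CCTCCTATCTGCTTTGAaagagactcattc
OAS2, dimmer probe: cttctgTTTCAAAGATGGAACTGGATATCC
OAS2, brighter probe: TTTCAAAGATGGAACTGGATATCCcgtgca
HERC5: tggaagaagcccttcagGTAGCCATCAACA
HERC6: tggaggaagcccttcaaGTAGCCATCAACA
In the canFam3 build that the files use, the MX1 probe lies at chr31:35929743-35929802 and the ISG15 probe at chr5:56237290-56237349. The 2 IRF9 probes lie at chr8:4156815-4156874 and chr8:4156858-4156917, and share 17 bases. The 2 OAS2 probes lie at chr26:10447681-10447740 and chr26:10447645-10447704, and share 24 bases. The HERC5 probe, at chr32:11800545-11800604, matches the HERC6 probe, at chr32:11750356-11750415, at 28 of the 30 bases shown, so how much of each signal came from the other gene's RNA was not tested. All of these lie on the plus strand. The files do not give exons, introns or untranslated regions.

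The arrays differed in quality between the groups. The scanner software marked 84.3% to 90.3% of probes as well above background for the blood RNA of healthy dogs, against 51.7% to 87.5% for AD dogs, and the 6 AD arrays of 1 scan day had at most 63.2%. There were 8 slides, read on 5 scan days, and no slide or scan day held both groups, so disease cannot be told apart from slide or scan day. Of the 30 members kept by the signal filter, 27 cleared the background in the dog's channel on all 28 arrays, and BST2, EIF2AK2 and OAS3 on 27. The filter had already dropped the dim members, while the percentages above are over all probes, so the members cannot be compared with them. None of the members' probes was saturated.

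No interferon response gene passed the test between AD and healthy dogs. limma compared the groups over all 30202 probes with Benjamini-Hochberg adjustment, and at an adjusted p of at most 0.085 called 0 of the 30 members, against 0% of all probes, and 0 at 0.05, again against 0%. At an unadjusted p under 0.05 there were 2 members, IRF9 (lower in AD dogs) and PML (higher), against 6.12% of all probes in either direction, 4.46% lower and 1.65% higher. Of the 30, 14 had a log2 fold change (AD mean of the log2 ratio minus the healthy mean) below 0, or 46.7%, against 52.1% of all probes. The median log2 fold change of the members was 0.0019, against -0.0096 over all probes, and the range was -0.44 to 0.45. The precision is limited by how many arrays there were, and for most members the interval of the difference was wide.

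**Figure D1:**
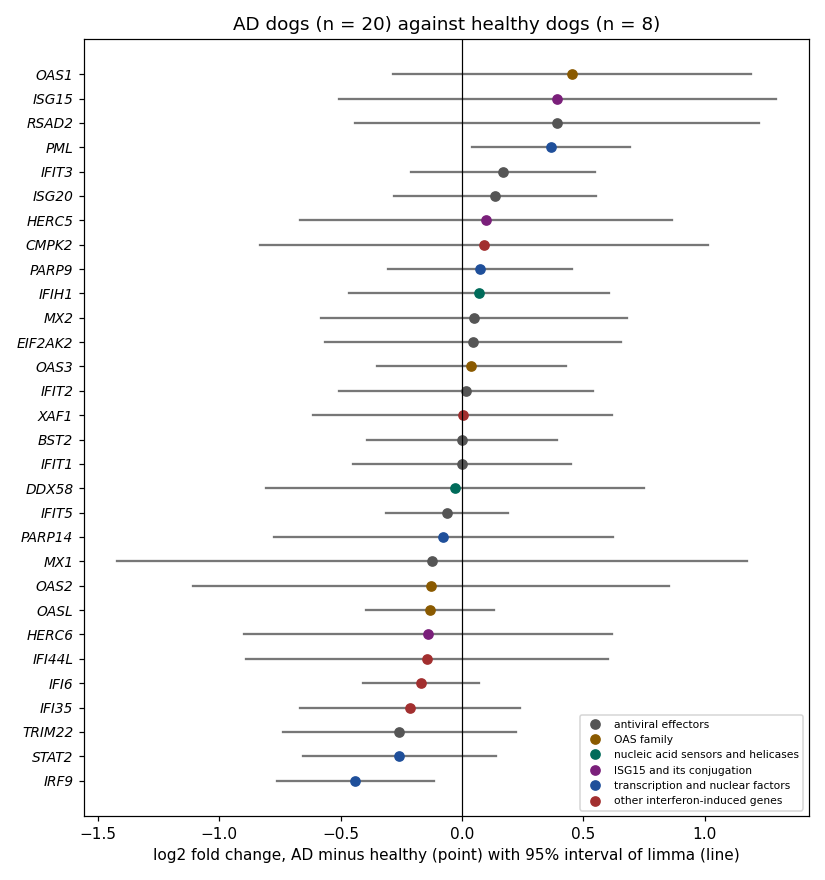
Log2 fold change of each member, AD minus healthy dogs (points, colored by role), with the 95% interval from limma (lines) on the x axis and genes on the y axis. The points lie between -0.44 (IRF9) and 0.45 (OAS1), and the intervals of 28 of the 30 genes include 0, all but those of IRF9 and PML.

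MX1, a GTPase that traps incoming viral particles, varied more between dogs than any other member. Its log2 ratio to the common reference ran from -3.09 to 4.09 in AD dogs with a median of -0.89, and from -1.83 to 3.26 in healthy dogs with a median of -0.82. The groups overlapped almost wholly, with 16 of the 20 AD dogs inside the healthy range, and the highest value of each group came from a single dog. The means were -0.44 ± 1.65 (SD, n = 20) and -0.31 ± 1.64 (SD, n = 8), a difference of -0.12 with an SE of 0.64 and a 95% interval from -1.42 to 1.17 (limma adjusted p = 0.980).

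The other antiviral effectors followed no common direction. Of the 11 measured effectors, MX1 included, 7 were higher and 4 lower in AD dogs on average, and the median log2 fold change was 0.018. RSAD2, the enzyme viperin, which makes a chain-ending nucleotide, had the largest difference among them. Its log2 ratio was -1.10 to 3.38 in AD dogs (median 0.52) and -0.48 to 2.73 in healthy dogs (median 0.026), a difference of 0.39 with a 95% interval from -0.44 to 1.23. In 17 of the 20 AD dogs RSAD2 lay inside the healthy range. IFIT1, IFIT2 and IFIT3, which bind viral RNA or block its translation and lie close together on chromosome 4, had log2 fold changes of -0.0011, 0.018 and 0.17. MX2, the partner of MX1 on chromosome 31, stood at 0.051, EIF2AK2 (the RNA-activated kinase PKR) at 0.045, BST2 (tetherin, which holds budding virions at the membrane) at 0.0013, the exonuclease ISG20 at 0.13 and the ubiquitin ligase TRIM22 at -0.26. The smallest limma adjusted p among all of these effectors was 0.873.

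Of the OAS family, whose active members make the oligoadenylate that switches on RNase L, OAS1 had the largest log2 fold change of all members. OAS1 ran from -1.12 to 1.88 in AD dogs (median 0.69) and from -1.59 to 1.89 in healthy dogs (median 0.22). Every AD dog lay within the range of the healthy dogs. The difference was 0.45 with an SE of 0.36 and a 95% interval from -0.28 to 1.19 (limma adjusted p = 0.870). Without slide 2, which held healthy dogs 1 to 4, the OAS1 difference was -0.16, so its sign rested on those dogs. OAS2 ran from -1.91 to 2.99 in AD dogs (median -0.50) and from -1.71 to 3.03 in healthy dogs (median -0.36), and 19 of 20 AD dogs lay inside the healthy range. OAS3 and OASL, which lacks the synthesizing activity, had log2 fold changes of 0.038 and -0.13.

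ISG15, a small ubiquitin-like protein that is attached to other proteins, had a log2 ratio of -1.06 to 2.24 in AD dogs (median 0.51) and of -1.79 to 2.84 in healthy dogs (median -0.097). All 20 AD dogs lay inside the healthy range. The difference was 0.39 with a 95% interval from -0.51 to 1.29 (limma adjusted p = 0.887), and it was -0.035 without slide 2. HERC5, a ligase that attaches ISG15, and HERC6 had log2 fold changes of 0.099 and -0.14. The RNA sensors IFIH1 (MDA5) and DDX58 (RIG-I), both helicases that detect viral RNA in the cytosol, stood at 0.070 and -0.029.

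The only members with an unadjusted p under 0.05, IRF9 and PML, are both nuclear, and for both the 2 probes of the gene gave different answers. IRF9 is the DNA-binding part of the STAT complex. On its brighter probe it ran from -1.06 to 0.12 in AD dogs (median -0.13) and from -0.53 to 0.58 in healthy dogs (median 0.14). The groups overlapped, with 14 of 20 AD dogs in the healthy range, while 19 of 20 lay below the healthy mean. The difference was -0.44 with an SE of 0.16 (limma unadjusted p = 0.00961, adjusted p = 0.530). The dimmer IRF9 probe, which overlaps the first by the 17 bases printed above, gave a difference of 0.084 with an SE of 0.11 (limma adjusted p = 0.905).

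These 2 IRF9 probes did not follow each other over the dogs. Over the 20 AD dogs Pearson's r was 0.037 (permutation p = 0.874) and Spearman's rho -0.075 (p = 0.752), and without the 2 dogs farthest from the median of the brighter probe r was -0.20. In healthy dogs r was -0.46 (exact permutation p = 0.251) and rho -0.33 (exact p = 0.428). The brighter probe had a median signal of 327854 in the common reference, 72.8 times that of the dimmer one, and only 0.146% of the probes left by the filter were as bright. It is 73.3% C or T, a share that 0.106% of these probes reach, and it holds an unbroken run of 27 C and T, of which the last bases open the stretch printed above; 0.0132% of probes hold as long a run. What part this sequence had in the IRF9 values was not tested.

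PML, the scaffold of the nuclear bodies that gather antiviral proteins, ran from -0.59 to 1.11 in AD dogs (median 0.66) and from -0.22 to 0.55 in healthy dogs (median 0.18) on its brighter probe. It was the member whose groups overlapped least, with 5 of 20 AD dogs inside the healthy range and 18 above the healthy mean. The difference was 0.37 with a 95% interval from 0.042 to 0.69 (limma unadjusted p = 0.0282, adjusted p = 0.700). On the dimmer PML probe, at chr30:37235366-37235425 against chr30:37268104-37268163 for the brighter one, the difference was -0.012 with an SE of 0.18. The 2 probes had an r of 0.091 over AD dogs (permutation p = 0.695) and a rho of 0.098 (p = 0.681), and r was 0.051 without the 2 farthest dogs. In healthy dogs r was 0.23 (exact permutation p = 0.590) and rho 0.12 (exact p = 0.793).

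In most other members with several probes, the probes moved together. Among 13 pairs of probes of 1 gene, Benjamini-Hochberg adjustment over these 13 relations left 11 at or below an adjusted p of 0.0136 in AD dogs, all but the pairs of IRF9 and PML. The 2 MX1 probes start 3030 bases apart and had an r of 0.94 over AD dogs (permutation p = 1e-05, the smallest it can give) and a rho of 0.91 (p = 1e-05), with r = 0.87 without the 2 farthest dogs. In healthy dogs the r of MX1 was 0.94 (exact permutation p = 0.00241) and rho 0.88 (exact p = 0.00724). The 2 OAS2 probes, with 24 shared bases, had an r of 0.99 (permutation p = 1e-05) and a rho of 0.99 (p = 1e-05) over AD dogs, and 0.99 without the 2 farthest. The lowest r among the 11 was that of OASL, at 0.57 (permutation p = 0.0115), which fell to 0.38 without its 2 farthest dogs, with a rho of 0.40 (p = 0.0813). In healthy dogs the OASL probes had an r of 0.23 (exact permutation p = 0.693) and a rho of -0.048 (exact p = 0.935).

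**Figure D2:**
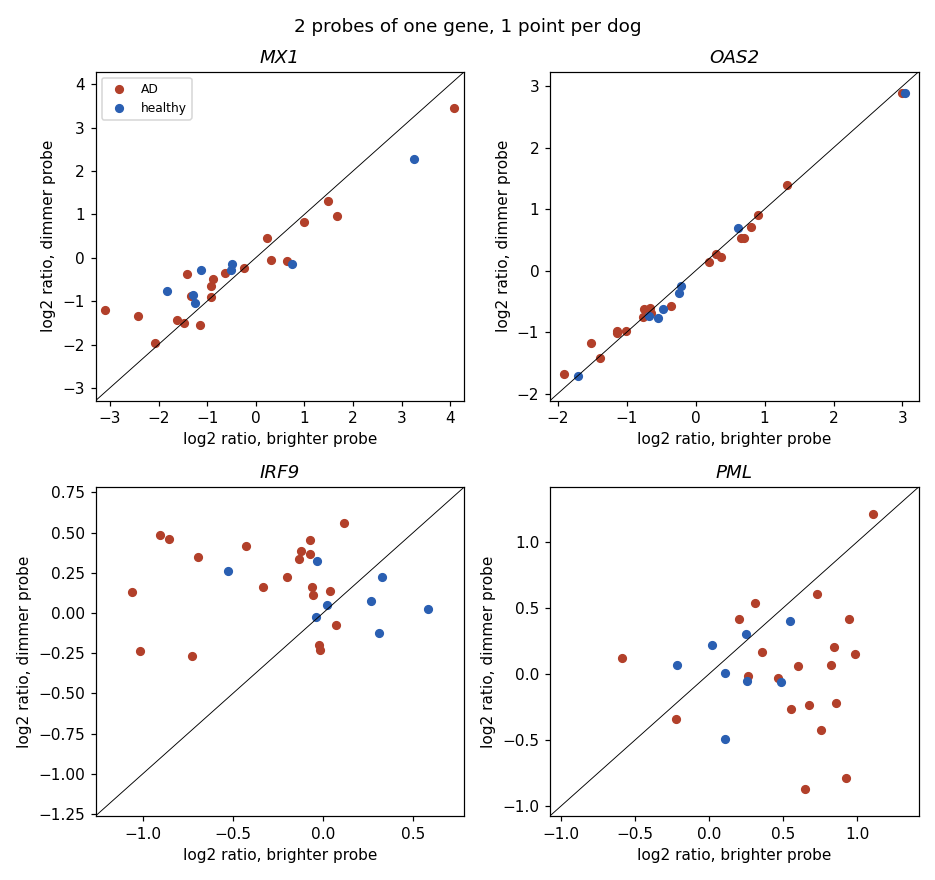
Log2 ratio to the common reference on the brighter probe (x axis) and the dimmer probe (y axis) of MX1, OAS2, IRF9 and PML, with 1 point for each of the 20 AD dogs (red) and 8 healthy dogs (blue) and a line of equal values. The points of MX1 and OAS2 follow the line (r = 0.94 and 0.99 over AD dogs), and those of IRF9 and PML do not (r = 0.037 and 0.091).

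The remaining nuclear members and the other interferon-induced genes differed little between the groups. STAT2 had a log2 fold change of -0.26, and PARP9 and PARP14, which attach ADP-ribose and act with STAT proteins, stood at 0.075 and -0.077. Of the 5 other interferon-induced genes, CMPK2, a mitochondrial nucleotide kinase whose gene lies next to RSAD2, had a log2 ratio of -1.33 to 3.00 in AD dogs (median -0.12) and of -0.91 to 3.38 in healthy dogs (median -0.25). Its difference was 0.091 with a 95% interval from -0.83 to 1.01, and 19 of 20 AD dogs were within the healthy range. IFI44L stood at -0.15, IFI35 at -0.22 and XAF1, a partner of apoptosis inhibitors, at 0.0024. IFI6, a mitochondrial protein, came next after IRF9 and PML by unadjusted p (0.157), with a difference of -0.17 and a 95% interval from -0.41 to 0.069, and was the member that varied least between dogs.

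Many of the members varied widely from dog to dog within both groups. The SD of the log2 ratio over all 28 dogs was at least 0.5 in 20 of the 30 members, against 31% of all probes, and at least 1 in 5 members (MX1, OAS2, CMPK2, ISG15 and RSAD2), against 1.2% of all probes. The median SD was 0.64 for the members and 0.41 for all probes. MX1, with an SD of 1.62 on its brighter probe, differed 145-fold between the lowest dog (AD 3) and the highest (AD 9). Of all probes, 0.0728% had an SD as large. The dimmer MX1 probe ran less widely, from -1.97 (AD dog 14) to 3.46 (AD dog 9), with AD dog 3 at -1.20. On the brightest probe, the range from the lowest to the highest dog was 30.8-fold for OAS2, 26.2-fold for CMPK2, 24.8-fold for ISG15 and 22.3-fold for RSAD2. At the other end, IFIT5, IFI6 and OASL ranged over 2.07-fold, 2.08-fold and 2.38-fold, and at least 80.3% of probes varied as much as each of these 3. For OASL this holds on its brighter probe only. On the dimmer OASL probe the log2 ratio ran from -0.79 (AD dog 17) to 2.11 (AD dog 9), with healthy dog 7 at 1.00.

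The spread was larger in the dogs' channel than in the common reference. With each channel taken alone and quantile normalized between arrays, the SD of the log2 signal of MX1 over the 28 arrays was 1.71 in the dogs' channel and 0.13 in the reference channel, a ratio of 12.7. The ratio was 10.5 for OAS2 and 5.39 for DDX58. It was above 2 in 25 of the 30 members, against 37.6% of all probes, with a median of 3.62 for members and 1.74 for all probes. IFI6, IFIT5, PARP9, BST2 and IFIT3 were the 5 below 2.

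**Figure D3:**
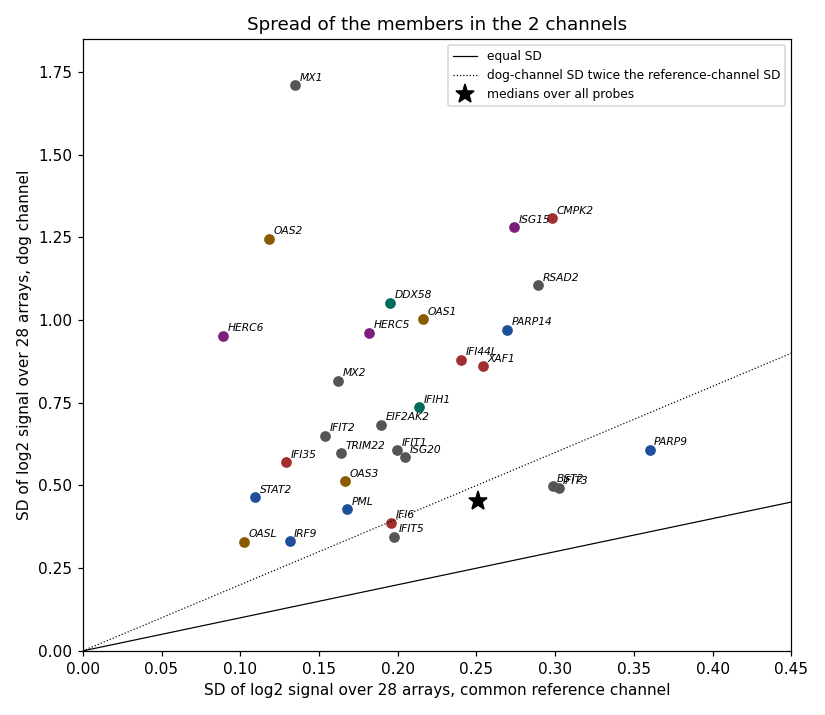
SD of the log2 signal over the 28 arrays in the common reference channel (x axis) and in the dogs' channel (y axis), 1 point per member colored by role as in the plot of fold changes, with lines for equal SD and for 2 times the SD and a star at the medians over all probes. MX1 (0.13 and 1.71), OAS2 and HERC6 stand highest above the dotted line, and 25 of 30 members lie above it.

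Single dogs carried much of this spread. AD dog 9 had the highest value of all 28 dogs in 20 of the 30 members, against 5.55% of all probes, and healthy dog 7 in 4 members (OAS1, OAS2, ISG15 and CMPK2), against 0.526%. Among the 8 healthy dogs, dog 7 was highest in 25 members, against 6.34% of probes. In 14 members its distance to the next healthy dog passed Dixon's limit, against 0.212% of probes for this dog and 3.94% for any healthy dog at the top. In AD dog 9, 23 of 30 members had a log2 ratio above 1, against 1.58% of all probes on that array, and the median member stood at 1.79. In healthy dog 7, 17 members were above 1, against 0.384% of probes, with a median of 1.27. AD dog 4 came next, with 9 members above 1 against 1.05% of probes and a median of 0.66. In the other 25 dogs the median member lay between -0.48 (AD dog 3) and 0.34 (AD dog 5).

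In AD dog 9, MX1 stood at 4.09, RSAD2 at 3.38, HERC5 at 3.20, CMPK2 at 3.00 and OAS2 at 2.99. In healthy dog 7, CMPK2 stood at 3.38, MX1 at 3.26, OAS2 at 3.03, ISG15 at 2.84 and RSAD2 at 2.73. Both dogs were therefore high in effectors, sensors and conjugation genes alike, with DDX58 at 2.69 and 2.65 and HERC6 at 2.77 and 2.70. The members that stayed near the other dogs in both were IFIT5, IFI6, TRIM22 and IRF9.

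Other arrays of the same slides did not share the pattern. The 3 healthy dogs beside healthy dog 7 on slide 3 had medians of -0.11, -0.23 and -0.023 over the members, and the 3 AD dogs beside AD dog 9 on slide 5 had -0.061, 0.063 and -0.25. In the reference channel the median member deviated from its mean over all arrays by 0.20 on the array of AD dog 9 and by -0.0095 on that of healthy dog 7. In the dogs' channel it deviated by 1.91 and 1.32. The 0.20 was the largest reference-channel deviation of the 28 arrays, with 0.10 next (AD dog 3). Each dog had 1 array, so a dog cannot be told apart from its array. AD dog 9 and healthy dog 7 differed in erythroid markers, with a mean log2 ratio over 5 such genes of -1.88 in AD dog 9, the lowest AD dog, and -0.036 in healthy dog 7. Healthy dog 7 had the highest neutrophil marker mean (0.57) and the lowest T cell marker mean (-0.54) of the healthy dogs, and the lowest mean of 3 NK and cytotoxic markers (-1.13), close to that of AD dog 9 (-1.06). The part of cell numbers in these values was not tested.

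**Figure D4:**
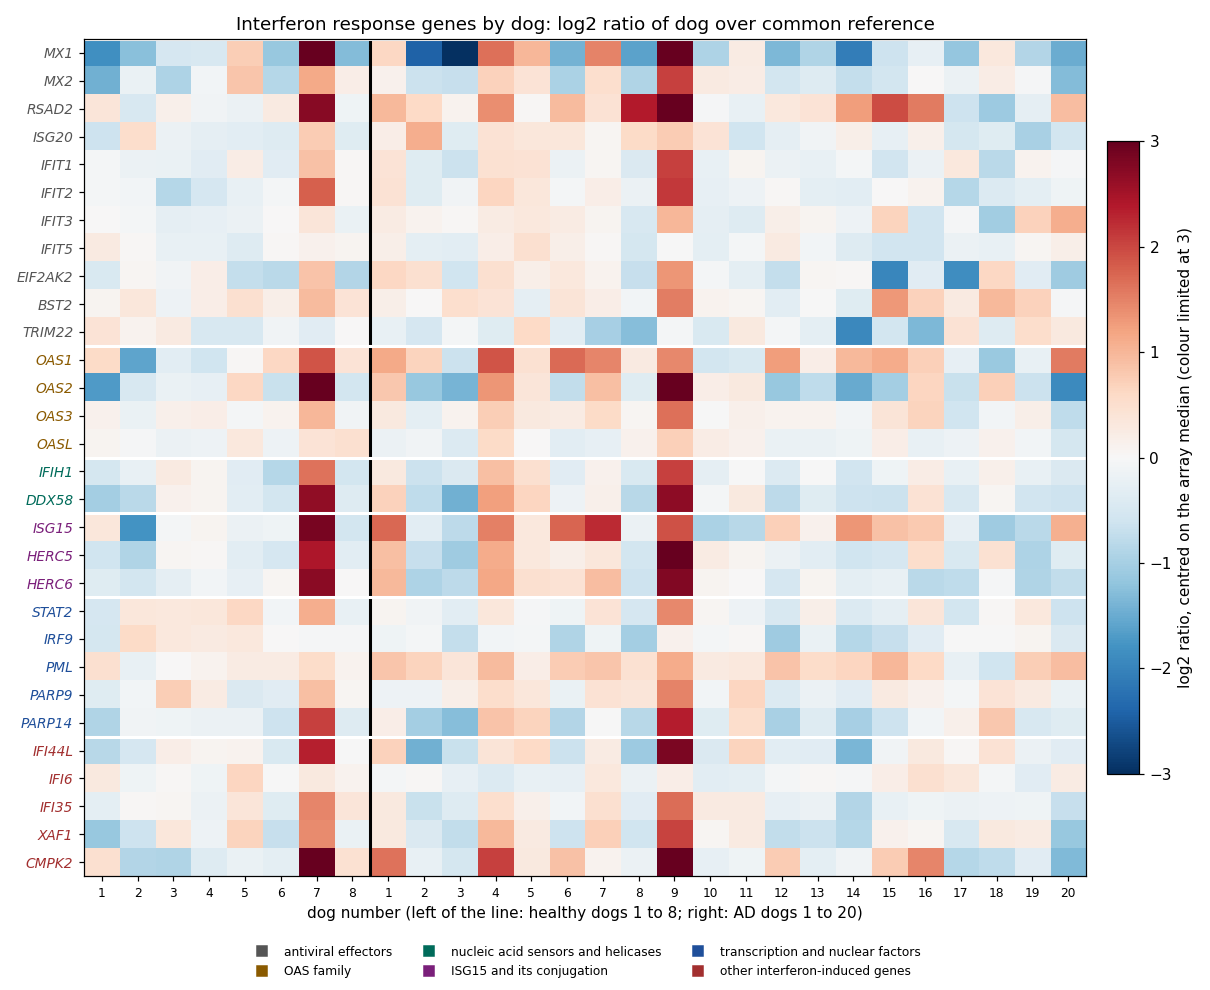
Log2 ratio to the common reference, centered on the array median, for the 30 members (rows, grouped and colored by role) in 8 healthy and 20 AD dogs (columns), with red for higher and blue for lower than the reference. Healthy dog 7 and AD dog 9 form the red columns (medians 1.27 and 1.79), AD dog 4 is next (0.66), and no such column sets one group apart from the other.

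With 1 dog left out at a time, the difference between the groups was highest without healthy dog 7 for most of the members described above. The median log2 fold change of the members was -0.080 without AD dog 9 and 0.22 without healthy dog 7. The MX1 difference was -0.36 and 0.39 in turn, and its sign also turned without healthy dog 5 (0.027) and without AD dog 3 (0.015). The difference ran from 0.13 (without healthy dog 2) to 0.79 (without healthy dog 7) for ISG15, from 0.21 to 0.70 for OAS1 without the same dogs, from 0.25 (without AD dog 9) to 0.73 (without healthy dog 7) for RSAD2, and from -0.31 to -0.034 for IFI35 without the latter pair of dogs. No member was called with any 1 dog left out.

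Within each group the members moved up and down together more often than genes at large. Over the 20 AD dogs, Pearson's r was above 0.5 in 202 of 435 pairs of members, or 46.4%, against 10.9% of all pairs of genes with a symbol, and the median r was 0.46 against -0.0048. Over the 8 healthy dogs it was above 0.5 in 271 pairs (62.3%, against 17.7%), with a median of 0.62. These pairs share dogs and genes and are given as a description. Without AD dog 9 the count in AD dogs was 134 (30.8%, against 10.9% of all pairs of genes), with a median r of 0.31. Without healthy dog 7 the count in healthy dogs was 96 (22.1%), against 19.3% of all pairs of genes, and the median was 0.028, so the co-variation in healthy dogs rested on that dog. With the mean of each slide removed, the count in AD dogs was 223 (51.3%, against 11.9%).

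The members fell into a large and a small block in AD dogs, picked out after the values were seen. Pearson's r with MX1 was above 0.8 in 10 of the other 29 members (MX2, OAS2, IFI44L, IFI35, IFIH1, HERC5, HERC6, DDX58, XAF1 and PARP14), against 0.142% of probes of other genes, and above 0.5 in 19, against 5.13%. Without AD dog 9 these counts were 9, against 0.0728%, and 16, against 2.81%. In healthy dogs r with MX1 was above 0.5 in 23 members, against 8.16% of probes, and in 9 without healthy dog 7, against 19.2%. In the small block, OAS1 had an r of 0.92 with ISG15 over AD dogs. With PML it was 0.82 on the brighter probe and -0.11 on the dimmer one. With the 10 members named above, r of OAS1 ran from 0.0285 (MX2) to 0.43 (HERC6). Members of neither block were also close to OAS1, with 0.64 for RSAD2, 0.58 for CMPK2 and 0.58 for IFIT3, so the blocks had no sharp border.

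The relation of MX1 to 1 member of each of 3 other roles was tested in both groups, 6 relations in all, with Benjamini-Hochberg adjustment over the 6. IRF9 took the place of IRF7, which had no probe. With ISG15, r over AD dogs was 0.45 (permutation p = 0.0418, adjusted p = 0.107) and rho 0.31 (p = 0.182, adjusted p = 0.514), and r was 0.26 without AD dogs 9 and 4, the 2 farthest from the median of MX1. With OAS1, r was 0.30 (permutation p = 0.195, adjusted p = 0.234) and rho 0.23 (p = 0.340, adjusted p = 0.514), with r = 0.060 without those 2 dogs. With IRF9 on its brighter probe, r was 0.56 (permutation p = 0.00875, adjusted p = 0.0525) and rho 0.53 (p = 0.0183, adjusted p = 0.110), with r = 0.52 without the 2 dogs. None of the 3 passed 0.05 after adjustment on these values.

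After subtraction of slide means, r over AD dogs was 0.54 for ISG15, 0.35 for OAS1 and 0.63 for IRF9. The permutation p was then 0.0135 for ISG15 (adjusted p = 0.0405 over the 6) and 0.00275 for IRF9 (adjusted p = 0.0165). These permutations shuffled all 20 dogs freely and took no account of the slide means subtracted. Their p-values are therefore too small, and whether the 2 relations pass 0.05 cannot be said from them. Without the 6 dogs of scan day 5 the 3 values of r were 0.55, 0.45 and 0.64. In the 8 healthy dogs, r of MX1 was 0.79 with ISG15 (exact permutation p = 0.0537, adjusted p = 0.107; rho 0.33, exact p = 0.428), 0.57 with OAS1 (exact permutation p = 0.168, adjusted p = 0.234; rho 0.095, exact p = 0.840) and 0.10 with IRF9 (exact permutation p = 0.777, adjusted p = 0.777; rho 0.38, exact p = 0.360). Without healthy dogs 7 and 5, the 2 farthest, r was 0.089, -0.37 and 0.66, so the relations with ISG15 and OAS1 rested on these dogs.

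**Figure D5:**
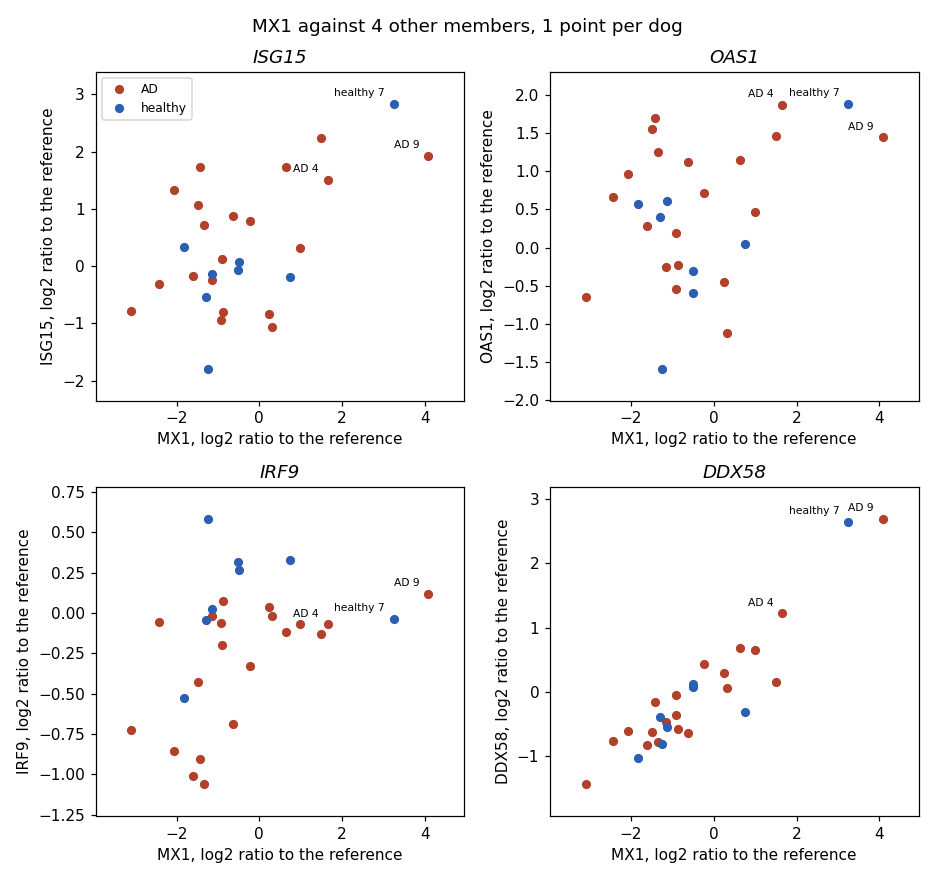
Log2 ratio of MX1 (x axis) against ISG15, OAS1, IRF9 and DDX58 (y axes), 1 point for each AD dog (red) and healthy dog (blue), with 3 dogs named. DDX58 rises with MX1 over the whole range (r = 0.94 over AD dogs), while ISG15 and OAS1 are spread widely at low MX1 (r = 0.45 and 0.30).

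Erythroid markers varied most among the cell type markers in AD dogs. The mean log2 ratio of 5 erythroid genes ran from -1.88 to 1.49 in AD dogs and from -1.73 to 1.25 in healthy dogs. Over AD dogs, r with this mean was below 0 in 24 of 30 members, against 55.5% of probes, and below -0.5 in 13, against 18.8%. It was negative for all 10 members of the MX1 block (for MX2 -0.72, for PARP14 -0.68) and positive for OAS1 (0.53), PML (0.46) and ISG15 (0.42). OAS1 was the only member above 0.5, against 16.6% of probes. MX1, by which the block was picked, stood at -0.51, so the signs within the block are not independent. These values include AD dog 9, the lowest AD dog in erythroid markers and the highest dog in many members. In healthy dogs r was positive for HERC5 (0.051) and HERC6 (0.17), and ran from -0.33 (MX2) to -0.0655 (DDX58) in the rest of the block. The values over AD dogs are a description over 20 dogs that share the arrays, and the part of erythroid RNA in the 2 blocks was not tested. Of 5 markers of plasmacytoid dendritic cells, the main source of type I interferon in blood, only TCF4 kept a probe, so the list rests on 1 gene; IL3RA, LILRA4, CLEC4C and SPIB had no probe under that name. Over AD dogs, r with TCF4 was above 0.5 in 19 of 30 members, against 5.85% of other probes, with 0.85 for IFI35, 0.83 for XAF1 and 0.81 for MX1. Without AD dog 9, which had the highest TCF4 value of the AD dogs (0.84), it was above 0.5 in 12 members, against 2.42% of probes, with 0.74 for IFI35 and 0.70 for MX1. The part of these cells in the members' values was not tested.

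The genes around the members in the pathway were no clearer between the groups. Of the interferon genes, 1 of 6 was measurable, IFNG, with a log2 fold change of 0.096, and 2 of 6 receptor genes, of which IFNLR1 stood at -0.24. Of JAK-STAT and IRF signalling genes 9 of 11 were tested (5 lower, 4 higher), with IRF4 at -0.32. Of upstream sensors and adaptors 9 of 12 were tested (4 lower, 5 higher), with TLR9, a sensor of unmethylated DNA, at 0.47. Of negative regulators 5 of 6 were tested, and PIAS1, an inhibitor of STAT signalling, stood at -0.41 with an SE of 0.13 (limma unadjusted p = 0.00266, adjusted p = 0.490). Of genes induced mainly by interferon gamma 9 of 16 were tested (6 lower, 3 higher), with the immunoproteasome subunit PSMB8 at -0.23. limma called 0 genes in each of these lists, and PIAS1 was the only one with an unadjusted p under 0.05.

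Genes outside the list that were most like the mean of the 30 members over the 20 AD dogs were EPSTI1 (r = 0.93), RNF213 (0.88), TRANK1 (0.87), UBE2L6 (0.87) and UBA7 (0.86), the highest 5 of 10743 genes. UBA7 and UBE2L6 are the activating and conjugating enzymes for ISG15. All 5 were high in the same single dogs: EPSTI1 stood at 2.30 in AD dog 9 and 2.21 in healthy dog 7, and UBA7 at 1.40 and 1.05. These 5 genes were picked over AD dogs that included AD dog 9, so high values in that dog follow in part from the choice. Their log2 fold changes between the groups lay between -0.20 and 0.12, and the smallest limma adjusted p was 0.873.

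The reference channel, which held 1 and the same pool throughout, was compared in the same way. With an adjusted p no higher than 0.085, limma called 13 of 30 members in this channel between AD and healthy arrays, against 39.1% of all probes. Of the 13, 11 were higher on AD arrays. The direction was not set against that of all called probes, so it cannot be read as particular to the members. The largest difference among members was 0.58 on the log2 scale (PARP9), and that of MX1 was 0.018. Among the 6 slides that held AD dogs, limma's F test called 0 of 30 members, against 5.28% of all probes, and EIF2AK2 alone had an unadjusted p under 0.05 (0.0491), against 16.5% of probes.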

How the data were processed

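Blood RNA of 20 AD and 8 healthy dogs was hybridised in Cy5 against a common reference in Cy3 on 2-color canine arrays. The authors deposited the scanner files of Agilent Feature Extraction 10.7.3.1, with processed signals (intensity, background-subtracted and dye-normalized) and a log10 ratio of dog over reference, and a table of the same log10 ratios, whose array medians were -0.00069 to 0.039 on the log2 scale. In the deposited files, marks for spots above background or uneven (other values) were used as filters, and marks for saturated spots were only counted. For each spot log2 of the red over the green processed signal was taken. Spots with outlier marks were set to missing and spots of 1 probe averaged. Of 43603 probes, 30202 were kept: at least 1 median of channel by group above 100, well above background on some array, and a value on at least a share of 0.5 of the arrays of each group. Each array was centered on its median.

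limma 3.58.1 in R 4.3.3 compared the groups with lmFit and eBayes over all kept probes, with Benjamini-Hochberg adjustment and the study's threshold of 0.085 beside 0.05. All tests were two-sided. Channels taken alone were quantile normalized between arrays. Permutation tests used 100000 resamples for AD dogs and all orders for healthy dogs. The fit was tested on simulated data. Full statistics were given for MX1 and its 3 partners, the 3 members each with the smallest unadjusted p, the largest absolute log2 fold change and the largest SD over the dogs, and every member with a healthy dog past Dixon's limit; outside the members, for the 5 genes most like their mean and the gene with the largest absolute log2 fold change of each pathway list. The members and lists were chosen with earlier results of these data known. Alternatives were other filters, background correction, centering, channels, probes, weights, blocks, and left-out dogs, slides and scan day; those for pairs of members, for the probes of 1 gene, for OAS1 with PML and for TCF4 were chosen after seeing the data. Figures were drawn with matplotlib 3.10.9.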

Additional observations from a re-analysis of the deposited data

Results flagged for a closer look

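In 14 of the 30 members, healthy dog 7 lay farther above the next healthy dog than Dixon's limit of 0.526 of the range of the 8 healthy dogs allows, against 0.212% of all probes with this dog so placed and 3.94% with any dog so placed at the top. By chance a small share of groups passes this limit, and the 14 values come from 1 array and are not independent. Among the effectors, RSAD2 stood at 2.73 in this dog and at 0.37 in the next healthy dog, IFIT1 at 0.88 and 0.23, IFIT2 at 1.79 and 0.028, and IFIT3 at 0.37 and 0.019. OAS3 stood at 1.00 and 0.20. The sensors IFIH1 and DDX58 stood at 1.63 and 2.65, with the next dogs at 0.26 and 0.12. ISG15 stood at 2.84 (next 0.33), HERC5 at 2.43 (next 0.056) and HERC6 at 2.70 (next 0.056). PARP14 stood at 2.04 (next -0.10), IFI44L at 2.32 (next 0.19), IFI35 at 1.46 (next 0.36) and CMPK2 at 3.38 (next 0.49). The cause was not tested.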

How the results depend on the processing

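No member was called under any alternative other than array weights, which called 2, IRF9 (-0.46, limma adjusted p = 0.0771) and PML (0.42, 0.0620), and 849 probes. Both were weaker with normexp and loess, with IRF9 at -0.27 (SE 0.31) and PML at 0.16 (SE 0.10). In that setting 0 members had an unadjusted p under 0.05. With the mean over the probes of a gene, IRF9 stood at -0.18. The count of probes called was 1251 in the dogs' channel alone, 3 with no signal filter and 1 with the dog channel well above background on at least 8 arrays. With 1 dog left out the counts of probes and of members called were 0, and the median log2 fold change of the members ran from -0.080 to 0.22. The pairs of members with r above 0.5 fell to 134 without AD dog 9 and 96 without healthy dog 7. In the reference channel 20 members were called with median centering and 6 without scan day 5. No share of all probes stands beside these counts, so they say nothing about the members in particular. The r of MX1 with IRF9 in AD dogs passed 0.05 after adjustment with no centering (0.56) and with the mean over probes (0.70). With normexp and loess it fell to 0.15. The r of MX1 with ISG15 passed in the dogs' channel alone (0.62). With slide means removed the adjusted p was below 0.05 for IRF9 (0.63) and ISG15 (0.54), but those permutation p-values are too small, as said above.

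The sign of several log2 fold changes turned, those of OAS1 and ISG15 among them, with none past the threshold on either side. With no signal filter IFIT2 was -0.015. With all 4 medians above 100 IFIT1 was 0.00328. With normexp and loess MX1 was 0.030 and IFIT1 0.035. In the dogs' channel alone MX1 was 0.015, OAS2 0.025, IFIT1 0.012, IFIT2 -0.038, DDX58 0.27, HERC5 -0.031 and PARP14 0.41. With array weights IFIT1 was 0.011. Without slide 1 CMPK2 was -0.019, IFIT1 0.00763 and IFIT2 -0.013. Without slide 2 ISG15 was -0.035, OAS1 -0.16, CMPK2 -0.54, IFIT2 -0.36, OAS3 -0.048 and HERC5 -0.24. Without slide 3 MX1 was 0.58, OAS2 0.51, IFIT1 0.19, DDX58 0.35, HERC6 0.33, PARP14 0.20, IFI44L 0.24 and IFI35 0.056. Without slide 5 CMPK2 was -0.047, IFIT2 -0.086, OAS3 -0.033, IFIH1 -0.014 and HERC5 -0.088. Without slides 4, 6, 7 and 8 in turn IFIT1 was 0.00652, 0.014, 0.024 and 0.042, and without slides 6, 7 and 8 DDX58 was 0.019, 0.00144 and 0.029. Without scan day 5 OAS2 was 0.012, IFIT1 0.082, DDX58 0.078 and HERC6 0.11. With 1 dog left out the ranges were -0.36 to 0.39 for MX1, -0.37 to 0.31 for OAS2, -0.069 to 0.54 for CMPK2, -0.11 to 0.12 for IFIT1, -0.11 to 0.27 for IFIT2, -0.039 to 0.16 for OAS3, -0.043 to 0.31 for IFIH1, -0.17 to 0.35 for DDX58, -0.065 to 0.45 for HERC5, -0.29 to 0.22 for HERC6, -0.21 to 0.22 for PARP14 and -0.30 to 0.17 for IFI44L; those of ISG15, OAS1, RSAD2 and IFI35, given above, kept their sign. The causes were not tested.

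The numbers of the dogs did not pair them: over 8 numbers the correlation of deviations was -0.36 to 0.42, and 3 dogs correlated best with their own number. With the dog number as a replicate block 0 probes and 0 members were called, the median log2 fold change was 0.029 and HERC6 turned to 0.046. In that fit 5 members had an unadjusted p under 0.05. The share of all probes under 0.05 there is not given, so this count says nothing about the members in particular.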
